A study of Mus musculus with 12 samples.

Results

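Glutathione, thioredoxin and the antioxidant enzymes that depend on them were followed across 4 genotypes of the mouse organ of Corti, the hearing epithelium of the inner ear. The members were taken by a rule on gene symbols, which was set with earlier results of these data known. They are the cytosolic and mitochondrial glutathione S-transferases of the alpha, kappa, mu, omega, pi and theta classes, the glutathione peroxidases, the microsomal glutathione transferases, the peroxiredoxins, the superoxide dismutases, the thioredoxin reductases, and 10 further genes named one by one (Gclc, Gclm, Gsr, Gss, Txn1, Txn2, Cat, Nqo1, Hmox1 and Srxn1). This gave 54 members among the 55348 genes of each count file. Of these, 49 had enough reads to be tested.

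Whole organs of Corti, freed of the stria vascularis and modiolus, had been taken at postnatal day 21, with 3 libraries for each of 4 genotypes: wild-type, single mutants for either gene, and double mutants. Clrn1-/- mice carry a constitutive deletion of exon 4 of Clrn1, made with PGK-cre, Clrn2-/- mice carry the clarinet nonsense mutation of Clrn2, and Clrn1-/-Clrn2-/- mice, the double mutants, come from a cross of both lines. Both mutations are in every cell of the animal, and the wild-type mice came from breedings of their own rather than from littermates. The paper states that organs were collected in triplicate and that mice of a group came from independent litters. It does not state how many animals stand behind a library, so the spread between libraries may be technical in part. The p-values measure only that spread. Clarin-1 and clarin-2 are membrane proteins of hair cells whose loss causes deafness. The study reported changed oxidative stress genes in double mutants and, in its discussion, higher oxidative stress markers, which its text does not name.

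Cells of the cochlea hold reactive oxygen species in check by relays of enzymes. Superoxide dismutases turn superoxide into hydrogen peroxide, which catalase, the glutathione peroxidases and the peroxiredoxins remove, and the last 2 groups draw their electrons from glutathione and from thioredoxin. Glutathione S-transferases couple glutathione to reactive compounds, and the transcription factor NRF2 (gene Nfe2l2), held back by KEAP1, drives many of these genes by binding antioxidant response elements in their promoters.

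The libraries held 30008679 to 41049302 reads on genes, and counting error alone therefore leaves a floor of 0.0731 to 0.100 counts per 1e6 reads on genes (CPM) for a gene with 3 reads in a library. The targeted gene Clrn1 fell from 25.8 CPM in wild-type to 2.83 in Clrn1-/- and 2.30 in Clrn1-/-Clrn2-/- mice. Clrn2 was low in wild-type, at 2.72 CPM, and stood at 1.23 in Clrn2-/-, 0.916 in Clrn1-/- and 1.08 in Clrn1-/-Clrn2-/- mice, so its level alone does not tell Clrn2-/- from Clrn1-/- libraries, and a nonsense mutation need not remove the transcript. All 15 hair cell markers and all 15 supporting cell markers were detected in each genotype. The summed level of the hair cell markers was 3577 to 4095 CPM in wild-type and 2445 to 2677 in Clrn1-/-Clrn2-/- libraries.

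Because NRF2 acts through promoters, the 300 bases around each start site (250 before and 50 after, RefSeq, GRCm38.p6) were searched on both strands for the core of the antioxidant response element, TGACNNNGC. A promoter was found for 47 of 54 members, with 60 promoters in all. The core occurred in 15% of the members' promoters and in 12.4% of all 32851 promoters. The 9 members with a match are shown with 6 bases on each side, read along the strand of the match, with the core in capitals.
Gclm, chr3:122245423-122245431, 134 bases before the start site: gagagtTGACGGTGCgcccgg
Gsta3, chr1:21240464-21240472, 121 bases before the start site: caggcaTGACATTGCattttt
Gstm5, chr3:107895812-107895820, 42 bases before the start site: gcccacTGACCACGCggaggg
Gstm7, chr3:107931735-107931743, 129 bases before the start site: aagaccTGACAAAGCgaagcc
Mgst1, chr6:138140471-138140479, 56 bases before the start site: gcctccTGACCGTGCcaagcc
Prdx1, chr4:116685466-116685474, 133 bases before the start site: gggggaTGACTCAGCgctttc
Sod1, chr16:90220706-90220714, 56 bases before the start site: tgagtcTGACCACGCccacct
Srxn1, chr2:152105552-152105560, 28 bases after the start site: tcactcTGACCTAGCtgccca
Txnrd1, chr10:82859114-82859122, 92 bases before the start site: tcagaaTGACAAAGCaaaaat
A match is a run of letters and not a binding site, and elements farther from the start lie outside this window. Start sites are those of RefSeq, and the matches of Gstm7, Mgst1 and Txnrd1 lie inside the gene as Gencode draws it. For Txnrd1 the Gencode gene begins far upstream, at chr10:82833951.

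In wild-type tissue the members differed in level by a wide margin when reads were set per kilobase of exon (FPKM). Gpx4, the selenoprotein that reduces lipid hydroperoxides in membranes, was the highest at 138 FPKM ± 4.19 (SD, n = 3). Prdx5, a peroxiredoxin of mitochondria and peroxisomes, followed at 116 ± 6.94, and Prdx2, a cytosolic peroxiredoxin, at 79.0 ± 3.42. Mgst3, a microsomal transferase with peroxidase activity, had 68.4 ± 3.41 FPKM and Prdx3, the mitochondrial peroxiredoxin, 63.9 ± 2.92, and the ranges of these last 2 overlapped while those of the 3 above them did not. Among the members tested, the lowest were Gpx6 at 0.242 FPKM and Mgst2 at 0.123. Gpx2, known best from the gut epithelium, reached 42.2 ± 4.38 FPKM and Gpx1 47.4 ± 1.46, with ranges that overlapped. Gpx4 shares 25.2% of the 100-base words of its transcripts with other genes, mainly the copy Gpx4-ps2, and its level may be split with that copy.

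**Figure D1:**
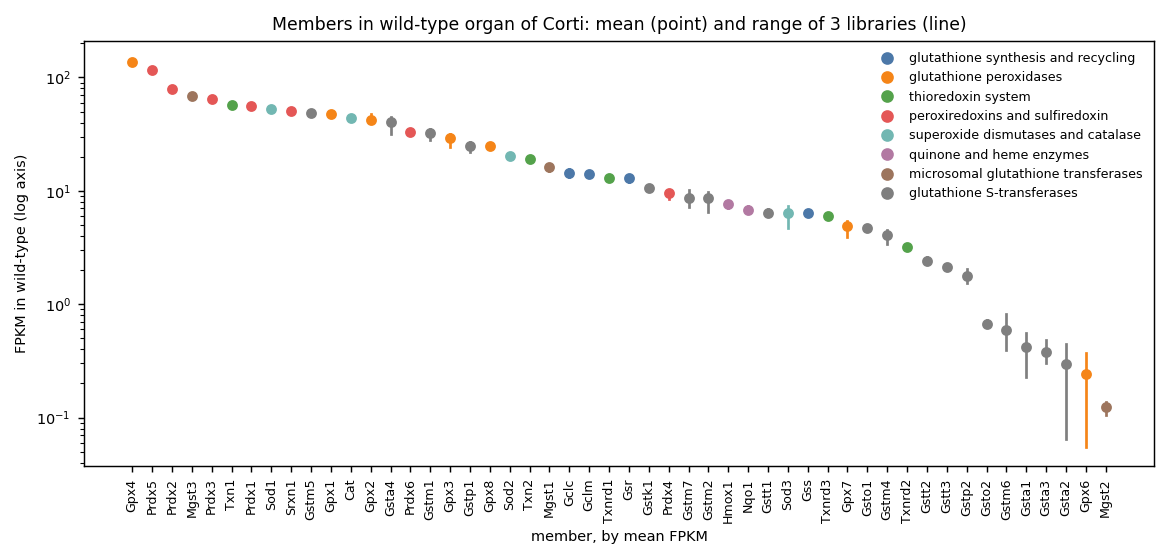
Level of each member with at least 0.1 FPKM in wild-type organ of Corti, ordered by mean and coloured by role, on a log axis; points are means and lines the range of 3 libraries. Gpx4 stands highest at 138 FPKM and Mgst2 lowest at 0.123.

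Against wild-type, a member was called over-expressed or under-expressed when edgeR's quasi-likelihood test, adjusted over all 19052 genes tested, gave an adjusted p of at most 0.05 with at least a 1.5-fold change. In Clrn1-/- mice 1 member was over-expressed (Gpx6) and 2 were under-expressed (Mgst3 and Gstm6), which is 6.12% of the members tested against 7.22% of all genes (3.52% upward and 3.7% downward). In Clrn1-/-Clrn2-/- mice 1 was over-expressed (Gpx3) and 2 were under-expressed (Mgst3 and Gsta3), 6.12% of the members against 9.9% of all genes (5.88% and 4.02%). In Clrn2-/- mice edgeR called 0 members, against 2.66% of all genes (1.24% and 1.42%). Limma-voom and DESeq2 called 0 there too. At an unadjusted p under 0.05 by edgeR, 6 members were higher and 7 lower, a share that was not counted over all genes. With 3, 0 and 3 of the 49 members called in Clrn1-/-, Clrn2-/- and double-mutant mice, these shares lie near those of all genes. In whole tissue, fewer cells of a type and less RNA per cell cannot be told apart.

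Smaller shifts were more frequent. At an adjusted p of at most 0.05 without a fold minimum, 5 members were higher and 11 lower in Clrn1-/- mice (32.7% of members, where 26.9% of all genes passed, 13.6% higher and 13.3% lower). In Clrn2-/- mice 4 were higher and 2 lower (12.2% against 14.2%, of which 7.14% higher and 7.07% lower). In Clrn1-/-Clrn2-/- mice 7 were higher and 9 lower (32.7% against 37.0%, of which 19.1% higher and 17.9% lower). These shares lie near the background, too. The counts behind them moved with the scaling and with single libraries left out, as given in the closing section on processing. The median log2 fold change of the members was -0.11 in Clrn1-/-, -0.02 in Clrn2-/- and -0.09 in double-mutant mice, where the medians over all genes were -0.003, -0.002 and 0.001. Groups of libraries did not overlap for 42.9% of the members in Clrn1-/- mice, where all genes gave 40.2%. For Clrn2-/- mice these shares were 20.4% and 29.0%, and for Clrn1-/-Clrn2-/- mice 53.1% and 48.2%. Of the 49 members, 28 passed the adjusted p in at least 1 mutant and 1, Mgst3, in all 3. Over all genes these shares were not counted, and the first is at least the 37.0% that passed in double mutants alone. The comparisons share the wild-type libraries.

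**Figure D2:**
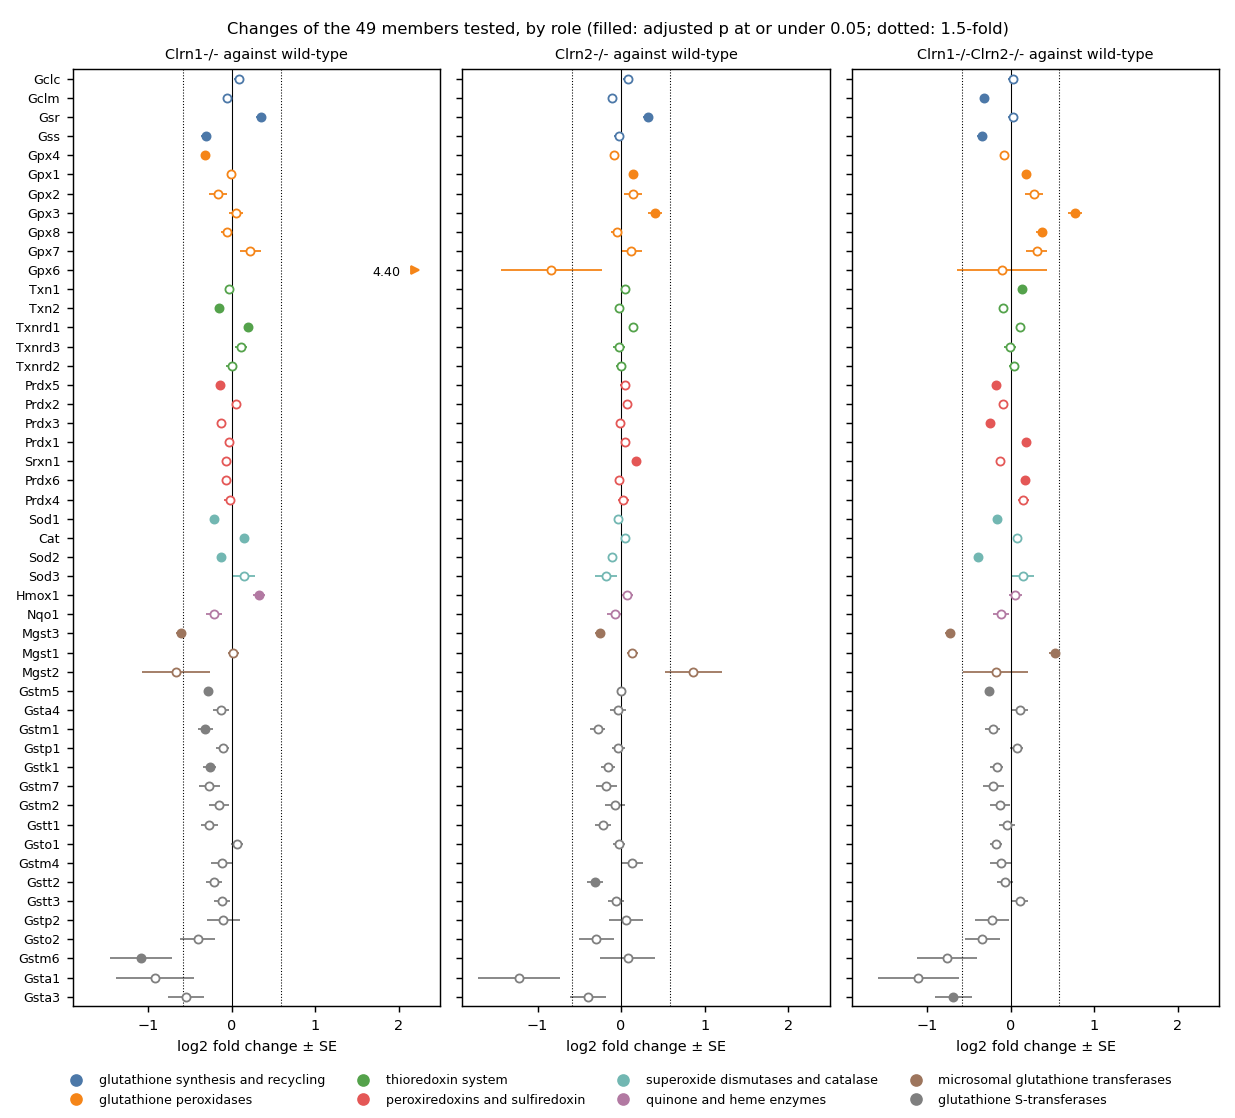
Log2 fold change ± SE against wild-type for the 49 members tested, in the 3 mutants, grouped and coloured by role; filled symbols passed an adjusted p of 0.05 and dotted lines mark 1.5-fold. Gpx6 in Clrn1-/- mice lies off the axis at 4.40 and is drawn as an arrowhead; most other members stay inside the dotted lines.

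Of the 4 genes of glutathione synthesis and recycling, 3 passed the adjusted p in at least 1 mutant. Over all genes that share was not counted, but 37.0% passed in double mutants alone. Together the 4 had 213 to 218 CPM in wild-type, 211 to 221 for Clrn1-/-, 215 to 223 in Clrn2-/- and 191 to 192 in double-mutant libraries. Gclc, the catalytic subunit of the enzyme that sets the rate of glutathione synthesis, had 53.7 CPM ± 4.63 in wild-type and 54.9 to 57.2 in the mutants, and passed the test in none of the 3. Its modifier subunit Gclm had 88.6, 86.8 and 90.1 CPM in the wild-type libraries, 84.5, 84.7 and 86.2 in Clrn1-/-, 83.5, 83.9 and 78.1 in Clrn2-/-, and 71.2, 70.3 and 71.3 in double-mutant libraries. All 3 double-mutant libraries lay below the 9 others, with a log2 fold change of -0.32 ± 0.04 (SE) against wild-type (adjusted p = 8.7e-06). Gss, which completes glutathione, was lower in both genotypes without Clrn1, with -0.31 ± 0.06 in Clrn1-/- (adjusted p = 0.0012) and -0.35 ± 0.06 in Clrn1-/-Clrn2-/- mice (adjusted p = 0.00028), while Clrn2-/- mice had -0.03 ± 0.06.

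Gsr, the reductase that returns oxidised glutathione to its reduced form, behaved differently in single and double mutants. Its libraries had 36.4, 36.8 and 33.0 CPM in wild-type, 46.0, 47.3 and 41.9 for Clrn1-/-, 46.5, 44.6 and 41.8 in Clrn2-/-, and 36.6, 34.5 and 37.3 in double-mutant mice. Every library of both single mutants lay above every library of wild-type and the double mutants. Gsr rose in Clrn1-/- (log2 0.35 ± 0.06, adjusted p = 0.00054) and in Clrn2-/- mice (0.32 ± 0.06, adjusted p = 0.002). In Clrn1-/-Clrn2-/- mice the difference from wild-type was 0.03 ± 0.06 (adjusted p = 0.73). The interaction of both losses, which asks whether the effect of Clrn1 loss is the same with and without Clrn2, was -0.64 ± 0.09 for Gsr (adjusted p = 0.00013).

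Among the glutathione peroxidases, Gpx3, the secreted form, was the member over-expressed in the double mutants. Wild-type libraries had 57.1, 56.5 and 43.9 CPM and Clrn1-/- libraries 57.2, 49.1 and 56.6. Clrn2-/- libraries had 73.5, 69.8 and 64.6, and Clrn1-/-Clrn2-/- libraries 89.9, 87.4 and 91.5. Wild-type and Clrn1-/- values overlapped, the Clrn2-/- libraries lay above both, and the double mutants lay above all others. The change in the double mutants was 1.71-fold (log2 0.77 ± 0.08, adjusted p = 2.9e-06). In Clrn2-/- mice it was 1.32-fold (0.40 ± 0.08, adjusted p = 0.0046), and in Clrn1-/- mice log2 0.05 ± 0.09 (adjusted p = 0.72). The double mutants were also higher than Clrn1-/- mice (0.72 ± 0.08, adjusted p = 9.6e-06), and than Clrn2-/- mice by 0.37 ± 0.08 (adjusted p = 0.0037). The interaction of 0.32 ± 0.12 did not pass (adjusted p = 0.077).

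Gpx6 is a peroxidase known from the olfactory epithelium. It was near the floor in 3 genotypes, with 0.506, 0.411 and 0.0759 CPM in wild-type, 0.188, 0.122 and 0.225 in Clrn2-/-, and 0.229, 0.446 and 0.232 in double-mutant libraries. Clrn1-/- libraries had 9.30, 4.99 and 6.57 CPM, from 294, 193 and 253 reads. All 3 Clrn1-/- libraries lay above each of the 9 others, of which the highest had 0.506 CPM. The log2 fold change against wild-type was 4.40 ± 0.35 (adjusted p = 3.1e-07). Double mutants, which lack Clrn1 as well, had less Gpx6 than Clrn1-/- mice (-4.51 ± 0.36, adjusted p = 2.6e-07). The interaction was -3.67 ± 0.81 (adjusted p = 0.0054).

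Gpx6 lies at chr13:21312125-21319624 (plus strand) and shares no 100-base word with another annotated gene. Of the 12 genes tested within 250 kb of it, 1 was called in Clrn1-/- mice, the lowly expressed 4930470G03Rik, which went from 0.0801 to 0.244 CPM (log2 1.53, adjusted p = 0.032). Zkscan3, a zinc finger gene on the same side, passed the adjusted p with -0.16 (0.02). The other 10 neighbours had an adjusted p above 0.05, among them Trim27 (0.07) and Zscan12 (-0.15), the closest tested genes on either side. These neighbours were chosen after the values of Gpx6 were seen.

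The 250 bases before the RefSeq start sites of Gpx3, Gpx6 and Mgst3 are given. The calls of these genes in Clrn1-/- (Gpx6) or double-mutant mice (Gpx3 and Mgst3) were kept in all 21 alternatives. In Gencode, Gpx3 begins at 54902453 and Gpx6 at 21312125. The bases given for Gpx3 therefore lie inside the annotated gene, as do the last of those for Gpx6. Capitals mark the GC box GGGCGG on either strand, the letters bound by SP-type factors.
Gpx3, chr11:54902604-54902853, plus strand: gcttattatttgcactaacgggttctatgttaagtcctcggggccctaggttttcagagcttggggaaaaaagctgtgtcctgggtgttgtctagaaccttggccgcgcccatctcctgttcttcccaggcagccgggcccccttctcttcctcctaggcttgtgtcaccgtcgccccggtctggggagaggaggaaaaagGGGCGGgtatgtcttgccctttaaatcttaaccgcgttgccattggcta
Gpx6, chr13:21311953-21312202, plus strand: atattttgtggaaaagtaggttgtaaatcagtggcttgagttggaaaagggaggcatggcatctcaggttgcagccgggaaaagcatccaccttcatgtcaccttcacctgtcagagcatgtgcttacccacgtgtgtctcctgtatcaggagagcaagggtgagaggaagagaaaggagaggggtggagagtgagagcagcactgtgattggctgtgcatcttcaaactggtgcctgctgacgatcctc
Mgst3, chr1:167393842-167394091, minus strand: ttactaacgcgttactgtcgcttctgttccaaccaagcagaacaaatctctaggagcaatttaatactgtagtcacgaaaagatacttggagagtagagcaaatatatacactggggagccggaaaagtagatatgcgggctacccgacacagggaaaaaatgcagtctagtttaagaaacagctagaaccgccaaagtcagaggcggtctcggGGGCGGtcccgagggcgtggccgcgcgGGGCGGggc
The box was present once for Gpx3 and 2 times for Mgst3, and 32.7% of all promoters hold it. CG steps numbered 11 for Gpx3, 3 for Gpx6 and 17 for Mgst3, where the median over all promoters was 6. None of the 3 held the antioxidant response element core in the 300 bases searched.

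The other peroxidases shifted by less. Gpx4 had 237, 231 and 245 CPM in wild-type libraries and 186, 181 and 206 in Clrn1-/- libraries, which did not overlap (log2 -0.32 ± 0.05, adjusted p = 0.00017). Clrn2-/- libraries had 223, 217 and 232 CPM and double mutants 227, 225 and 221, each with -0.08 ± 0.05, and the interaction passed at 0.32 ± 0.07 (adjusted p = 0.0045). Gpx8, a peroxidase of the endoplasmic reticulum, had 24.9 to 26.6 CPM in wild-type and 31.5 to 36.6 in double mutants (0.37 ± 0.07, adjusted p = 0.00041), with an interaction of 0.49 ± 0.10 (adjusted p = 0.0027). Gpx1, the cytosolic form, was higher in Clrn2-/- (0.14 ± 0.04, adjusted p = 0.048) and in double mutants (0.19 ± 0.04, adjusted p = 0.0035). Gpx2 and Gpx7 passed in none of the 3 mutants, with log2 values of 0.28 and 0.31 in the double mutants. Gpx5 gave 1 read over all 12 libraries and was not tested. The 8 peroxidases together summed to 518 to 539 CPM in wild-type. The sums were 453 to 507 CPM for Clrn1-/-, below wild-type, 528 to 578 in Clrn2-/-, which overlapped it, and 584 to 620 in double-mutant libraries, above it.

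**Figure D3:**
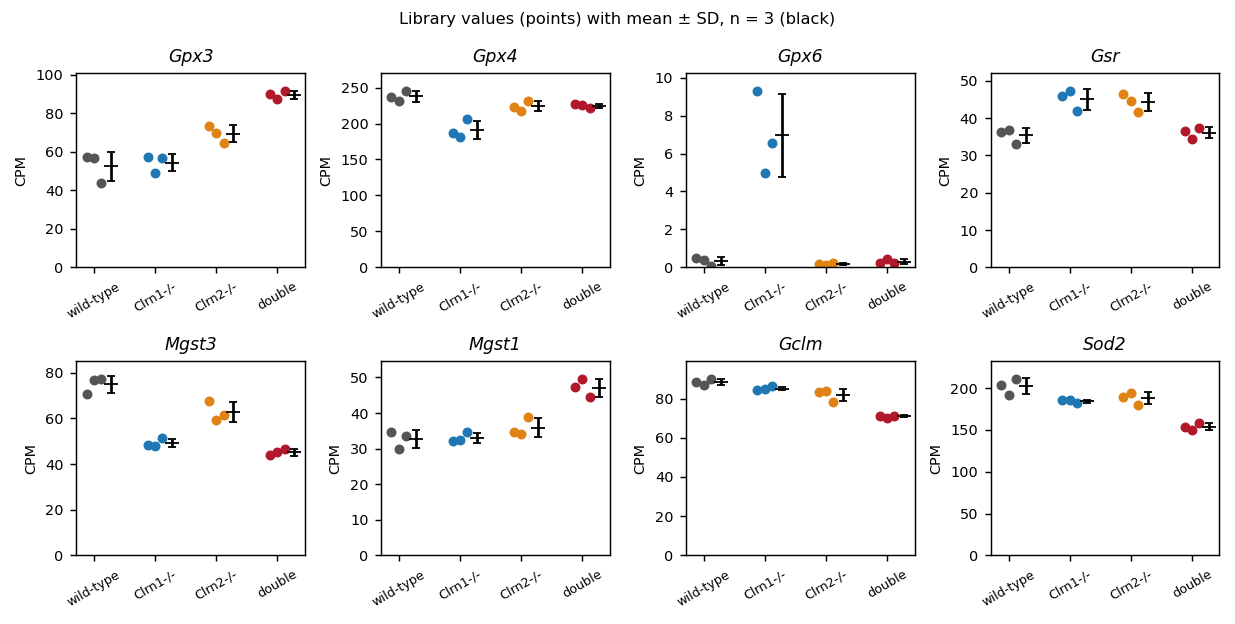
CPM of 8 members in each library (points) with the mean ± SD of 3 libraries (black), from 0. Gpx3 and Mgst1 stand highest and Gclm and Sod2 lowest in the double mutants, Gsr is higher in both single mutants, and Gpx6 is high in the 3 Clrn1-/- libraries, between 4.99 and 9.30 CPM.

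No member of the thioredoxin system was called over- or under-expressed against wild-type. Txn1, the cytosolic thioredoxin, had 59.9 to 61.4 CPM in wild-type and 66.0 to 67.9 in double mutants (0.14 ± 0.05, adjusted p = 0.024). Mitochondrial Txn2 was lower in Clrn1-/- mice (-0.15 ± 0.04, adjusted p = 0.011). Txnrd1, the cytosolic reductase and a known NRF2 target, was higher in Clrn1-/- mice (0.19 ± 0.04, adjusted p = 0.0044) and had 0.14 in Clrn2-/- (adjusted p = 0.051) and 0.11 in double mutants (adjusted p = 0.069). Its mitochondrial relative Txnrd2 and the testis-enriched Txnrd3 passed in none, with Txnrd2 between 13.9 and 14.4 CPM on average in all 4 genotypes.

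Among the 6 peroxiredoxins and sulfiredoxin, 2 were higher and 2 lower at the adjusted p in the double mutants, where 19.1% of all genes were higher and 17.9% lower. Prdx3 had 93.7, 90.6 and 99.1 CPM in wild-type, 84.2, 86.1 and 89.5 for Clrn1-/-, 97.7, 95.3 and 88.8 in Clrn2-/- and 79.0, 82.1 and 77.5 in double-mutant libraries. The double mutants lay below wild-type without overlap (-0.25 ± 0.05, adjusted p = 0.0006), and the Clrn1-/- libraries did too, where the test gave -0.12 ± 0.05 (adjusted p = 0.061). Prdx5 had 239, 238 and 265 CPM in wild-type, 226, 213 and 235 for Clrn1-/-, 256, 250 and 258 in Clrn2-/- and 214, 217 and 225 in double-mutant libraries. It was lower without overlap in Clrn1-/- (-0.14 ± 0.05, adjusted p = 0.043) and double-mutant mice (-0.18 ± 0.05, adjusted p = 0.0085). The cytosolic Prdx1 (0.18 ± 0.05, adjusted p = 0.0045) and Prdx6 (0.18 ± 0.05, adjusted p = 0.015) were higher in the double mutants instead. Prdx2 had 235, 235 and 253 CPM in wild-type, 249, 240 and 263 for Clrn1-/-, 266, 249 and 245 in Clrn2-/- and 230, 224 and 226 in double-mutant libraries, and passed in no mutant against wild-type. Prdx4, of the endoplasmic reticulum, passed in none either. Srxn1, which restores over-oxidised peroxiredoxins, was higher in Clrn2-/- mice (0.18 ± 0.05, adjusted p = 0.029), and the double mutants were lower than those by -0.30 ± 0.05 (adjusted p = 0.0005).

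Of the enzymes that act on superoxide and hydrogen peroxide, Sod2, the manganese enzyme of the mitochondrial matrix, had 204, 192 and 211 CPM in wild-type, 186, 185 and 182 for Clrn1-/-, 190, 194 and 180 in Clrn2-/- and 154, 149 and 159 in double-mutant libraries. The double mutants lay below the 9 other libraries. Sod2 fell by 0.39 ± 0.04 on the log2 scale in double mutants (adjusted p = 4.1e-06) and by 0.13 ± 0.04 in Clrn1-/- mice (adjusted p = 0.036). Cytosolic Sod1 was lower in Clrn1-/- (-0.22 ± 0.05, adjusted p = 0.0031) and double-mutant mice (-0.16 ± 0.05, adjusted p = 0.012), and catalase was higher in Clrn1-/- mice (0.14 ± 0.04, adjusted p = 0.0095). Extracellular Sod3, which lies 6.90 Mb from Clrn2 on chromosome 5, passed in none.

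Hmox1, the inducible heme oxygenase, had 12.3 to 14.2 CPM in wild-type and 16.0 to 17.9 in Clrn1-/- libraries (0.32 ± 0.07, adjusted p = 0.0044). In Clrn2-/- and double-mutant mice it stood at 0.07 and 0.06, and the interaction passed (-0.34 ± 0.11, adjusted p = 0.04). Nqo1, the quinone reductase often read as an NRF2 reporter, had 10.5 CPM ± 0.778 in wild-type and 9.08 to 9.95 in the mutants, and passed in none.

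Among the microsomal transferases, Mgst3 had 70.7, 77.1 and 77.4 CPM in wild-type, 48.6, 48.0 and 51.3 for Clrn1-/-, 67.8, 59.2 and 61.7 in Clrn2-/-, and 43.8, 45.1 and 46.8 in double-mutant libraries. All 9 mutant libraries lay below the 3 wild-type libraries, the double mutants lowest. The log2 fold change was -0.61 ± 0.06 in Clrn1-/- (adjusted p = 1.1e-06), -0.25 ± 0.05 in Clrn2-/- (adjusted p = 0.0051) and -0.73 ± 0.06 in Clrn1-/-Clrn2-/- mice (adjusted p = 6.8e-08). The double mutants differed from Clrn2-/- mice (-0.48 ± 0.06, adjusted p = 1.7e-05) but not past the test from Clrn1-/- mice (-0.12 ± 0.06, adjusted p = 0.11), and the interaction was 0.13 ± 0.08 (adjusted p = 0.28). The Clrn1-/- change was 1.52-fold, and without Clrn1-/- replicate 2 (-0.58) or with library size alone (-0.56) it was under 1.5-fold.

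Mgst1 had 34.6, 29.8 and 33.7 CPM in wild-type and 47.3, 49.6 and 44.5 in double mutants, without overlap (0.53 ± 0.07, adjusted p = 1.3e-05), while both single mutants had 33.1 and 35.9 CPM on average. Its interaction was 0.37 ± 0.09 (adjusted p = 0.013). Mgst2, which also makes leukotriene C4, lies 7.16 Mb from Clrn1 on chromosome 3 and was near the floor, with 51, 31, 88 and 41 reads over the 3 libraries of wild-type, Clrn1-/-, Clrn2-/- and double-mutant mice. It passed against wild-type in none, and was called lower in Clrn1-/- than in Clrn2-/- mice (-1.53 ± 0.37, adjusted p = 0.0099) and in double mutants than in Clrn2-/- mice (-1.04 ± 0.36, adjusted p = 0.04). The first call was lost without Clrn1-/- replicate 2 (adjusted p = 0.057) or Clrn2-/- replicate 3 (0.051), and the second with DESeq2 (0.0653) or without any of the 3 Clrn2-/- libraries or double-mutant replicate 2 or 3. Over all alternatives the adjusted p of the first lay between 0.00035 and 0.057 and that of the second between 0.0066 and 0.15.

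Of the 21 soluble glutathione S-transferases, 17 were tested. In Clrn1-/- mice 4 of them were lower and 0 higher at the adjusted p, where 13.3% of all genes were lower and 13.6% higher, and the median log2 over the class was -0.26. These were Gstm6, Gstm5 (-0.28 ± 0.05, adjusted p = 0.00089), Gstm1 (-0.32 ± 0.09, adjusted p = 0.016) and Gstk1 (-0.26 ± 0.08, adjusted p = 0.021). In Clrn2-/- mice Gstt2 was lower (-0.32 ± 0.09, adjusted p = 0.035), with a class median of -0.07. In double mutants Gsta3 and Gstm5 (-0.26 ± 0.05, adjusted p = 0.0009) were lower, with a class median of -0.17. Gsta4 and Gstp1, abundant alpha and pi forms, passed in no mutant. The 7 mu genes sit side by side on chromosome 3, 49.01 to 49.16 Mb from Clrn1, and the 4 lower genes included 3 of them.

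The calls among the S-transferases rested on few reads. Gstm6 had 1.12, 1.64 and 0.784 CPM in wild-type and 0.633, 0.414 and 0.623 in Clrn1-/- libraries (log2 -1.09 ± 0.37, adjusted p = 0.041), from 131 and 60 reads in all. Clrn2-/- libraries had 0.699, 1.71 and 1.35 CPM and double-mutant libraries 0.983, 0.446 and 0.670, and both overlapped wild-type. Leaving out Clrn1-/- replicate 1, 2 or 3 or wild-type replicate 1 or 2 ended the call against wild-type, as did leaving out Clrn2-/- replicate 3 or double-mutant replicate 3, limma-voom (adjusted p = 0.0677) and library size alone (0.0512). With the replicate number as a block the Gstm6 change was -1.07 with an adjusted p of 0.0565, and over all alternatives its adjusted p lay between 0.00071 and 0.18. Gsta3 had 1.32, 2.08 and 1.54 CPM in wild-type, 1.08, 1.06 and 1.25 for Clrn1-/-, 1.16, 1.35 and 1.26 in Clrn2-/- and 1.31, 0.743 and 1.03 in double-mutant libraries (double mutants -0.69 ± 0.22, adjusted p = 0.024). The highest double-mutant library lay just under the lowest wild-type library. The Gsta3 call was lost without wild-type replicate 2 (-0.49), double-mutant replicate 2 (-0.51) or double-mutant replicate 3 (-0.70) and with those genotypes fitted alone (adjusted p = 0.0638), and its adjusted p lay between 0.012 and 0.12 over all alternatives. Gsta1 shares 80.6% of its 100-base words with other genes and Gstp2 46.9%, so their counts, and those of Gsta2 and Gstp1, are uncertain.

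The 5 members left out for low counts were Gstm3, with 0 reads in all 12 libraries, Gpx5, Gstp3, Gstt4 and Gsta2. A count of 0 over the 3 libraries of a genotype allows up to 0.0263 to 0.0293 CPM. Gsta2 had 38 reads in wild-type, 16 for Clrn1-/-, 20 in Clrn2-/- and 7 in double-mutant libraries.

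Comparisons among the mutants gave few further calls. Between double mutants and Clrn1-/- mice, 2 members were called, Gpx3 and Gpx6 (4.08% of members, 7.23% of all genes). Between double mutants and Clrn2-/- mice it was 1, Mgst2 (2.04% against 5.1%). Between Clrn1-/- and Clrn2-/- mice it was 3, Gpx6, Mgst2 and Gstm6 (6.12% against 4.73%), of which Gstm6 (-1.16 ± 0.37, adjusted p = 0.039) was lost without any of the 3 Clrn1-/- libraries, Clrn2-/- replicate 2 or 3, double-mutant replicate 3 or wild-type replicate 1, with limma-voom and with the block (its adjusted p lay between 0.00035 and 0.17). The interaction was called for Gsr and Gpx6 (4.08% against 5.5%), and 12 members passed its adjusted p alone, 6 in each direction (9.32% of all genes higher and 8.06% lower). Positive values, where the double mutants were above the sum of both single changes on the log2 scale, were found for Gpx8, Gstt2, Gstt1, Mgst1, Gpx4 and Prdx6. Negative values were found for Gpx6, Gsr, Hmox1, Srxn1, Txnrd1 and Prdx2.

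**Figure D4:**
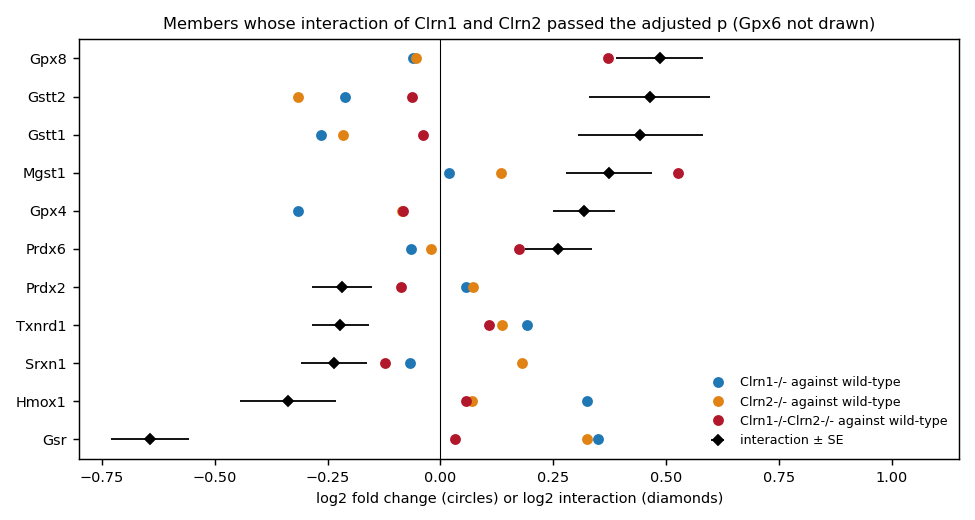
Log2 fold changes against wild-type in the 3 mutants (circles) and the interaction of Clrn1 and Clrn2 ± SE (diamonds) for 11 of the 12 members whose interaction passed an adjusted p of 0.05; Gpx6, at -3.67, is left out for scale. Gsr, at -0.64, is higher in both single mutants and near 0 in the double mutants.

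The genes that control or surround these enzymes were taken from 9 lists with 140 genes, of which 132 were tested. In Clrn1-/- mice 8 of them were called (6.06%, 4 in each direction), in Clrn2-/- mice 3 (2.27%, all higher) and in double mutants 8 (6.06%, 7 higher and 1 lower), against the 7.22%, 2.66% and 9.9% of all genes. Nfe2l2 had 61.1, 59.4 and 56.2 CPM in wild-type, 51.2 to 57.9 for Clrn1-/-, 52.4 to 59.6 in Clrn2-/- and 72.5, 67.5 and 65.5 in double-mutant libraries. It was higher in double mutants (0.22 ± 0.06, adjusted p = 0.0085), with an interaction of 0.40 (adjusted p = 0.0043). Keap1 passed in none and had 85.7 to 90.0 CPM on average.

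Among the 11 regulators, Nfe2l3, a relative of NRF2, rose in double mutants from 6.84 to 16.3 CPM (1.25 ± 0.13, adjusted p = 1.4e-06). Maff, a small partner of these factors, rose from 3.52 to 6.55 CPM (0.90 ± 0.15, adjusted p = 0.00019). The 23 NRF2 targets tested outside the members did not move one way in the double mutants. There 4 passed the adjusted p higher and 5 lower, where 19.1% of all genes were higher and 17.9% lower. In Clrn1-/- mice 9 were lower and 0 higher at the adjusted p, where 13.3% of all genes were lower, and 4 of the 9 were called, against 3.7% of all genes. These 4, named after their values were seen, were Ephx1, a detoxifying epoxide hydrolase (57.9 to 38.2 CPM, -0.60), Aldh3a1, an aldehyde dehydrogenase (13.2 to 7.48 CPM, -0.83), Akr1b8 (-0.75) and Cyp2a5. The Ephx1 change was -0.55 without wild-type replicate 1. Ephx1 was also under 1.5-fold with library size alone (-0.56). Akr1b8 was no longer called without Clrn1-/- replicate 1 or wild-type replicate 1 or 2, or with those genotypes fitted alone (adjusted p between 0.0084 and 0.14 over the alternatives). Cyp2a5 had 3.37 CPM in wild-type replicate 1 against 0.164 and 0.278 in the others, so that its log2 value went from -3.07 (adjusted p = 0.044) to -0.59 (0.713) without that library. The call was also lost with the replicate block (-2.71, adjusted p = 0.0676), with DESeq2 (-3.14, 0.0577) and with limma-voom (-1.87, 0.235).

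Glutathione breakdown was represented by Chac1, which cleaves glutathione in the cytosol. It rose from 3.41 CPM in wild-type to 10.7 in Clrn2-/- (1.65 ± 0.15, adjusted p = 4.4e-06) and to between 6.08 and 8.59 in double mutants (1.03 ± 0.15, adjusted p = 5.9e-05), and had 4.71 CPM in Clrn1-/- mice (0.46, adjusted p = 0.038). The interaction was -1.08 ± 0.21 (adjusted p = 0.0023). Slc1a4, a neutral amino acid carrier (0.76), and Mthfd2, a mitochondrial folate enzyme that yields reduced cofactor (0.89), were the other calls in Clrn2-/- mice, and Dpep1, a dipeptidase of glutathione turnover (0.85), was called in Clrn1-/- mice. These 3 were named after their values were seen. Ggt6 was called in both genotypes without Clrn1 but had 2 reads in all of wild-type and 43 in double mutants, so no fold is given. Ltc4s, the leukotriene C4 synthase, had 133 reads in wild-type and 216 in double mutants (0.81 ± 0.24, adjusted p = 0.014), a call that was lost without double-mutant replicate 1 or wild-type replicate 3. With unstranded counts it was 0.42 (adjusted p = 0.605), and over all alternatives its adjusted p lay between 0.00083 and 0.61.

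The sources of superoxide on the lists included the phagocyte oxidase. Cybb, its catalytic subunit, had 7.23 CPM in wild-type, 11.2 in Clrn1-/- (0.63 ± 0.12, adjusted p = 0.00087), 7.38 in Clrn2-/- and 11.4 in double mutants (0.66 ± 0.12, adjusted p = 0.00032). Ncf1, its organiser, had 6.18, 10.2, 6.90 and 10.3 CPM in the same order, with 0.72 ± 0.13 in Clrn1-/- (adjusted p = 0.00056) and 0.74 ± 0.13 in double mutants (adjusted p = 0.00024). Without wild-type replicate 3, Cybb had 0.51 and 0.53 in these mutants, and it was also under 1.5-fold without replicate 1 of Clrn1-/- (0.56) or of the double mutants (0.58). Tfrc, the transferrin receptor, fell from 546 CPM in wild-type to 397, 461 and 332 in Clrn1-/-, Clrn2-/- and double-mutant mice, and was called in the last (-0.71 ± 0.06, adjusted p = 2.1e-07). Nnt, the mitochondrial transhydrogenase that supplies NADPH, was at 0.321 to 0.437 CPM in all genotypes.

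Markers of some cell types moved in the same comparisons. Of 12 macrophage markers, 4 were over-expressed in Clrn1-/-, 1 in Clrn2-/- and 7 in double-mutant mice, and their summed level was 176 to 228 CPM in wild-type, 305 to 332, 212 to 264 and 317 to 370 in the 3 mutants, the order in which Cybb and Ncf1 moved. Of 15 supporting cell markers, 8 were over-expressed and 1 under-expressed in double mutants, beside the higher Gpx3, Mgst1 and Gpx8 there. The Clrn1-/- comparison called 2 of them and the Clrn2-/- comparison 3, each over-expressed. Their sums were 6295 to 6753 CPM in wild-type, 6709 to 7133, 6468 to 7250 and 8534 to 9144 in the 3 mutants. Of 12 fibroblast markers, 2 were over- and 2 under-expressed in Clrn1-/-, 0 and 2 in Clrn2-/- and 3 and 1 in double-mutant mice, and they summed to 7288 to 8522 CPM in wild-type, 6078 to 6617, 5643 to 6331 and 8121 to 9218 in the mutants. Of 15 neuron markers, 0 were under-expressed and 0 over-expressed in Clrn1-/-, 0 and 1 in Clrn2-/- and 5 and 2 in double-mutant mice. Their sums were 15463 to 17067 CPM in wild-type, 13714 to 14303, 13429 to 15659 and 10558 to 10877 in the 3 mutants. Mgst3, Sod2 and Prdx3 were lower in double mutants, but Mgst3 and Sod2 were also lower in Clrn1-/- mice, and Mgst3 in Clrn2-/- mice. Of 11 red blood cell markers tested, 7 were under-expressed in Clrn1-/-, 5 in Clrn2-/- and 2 in double-mutant mice. Their sums were 715 to 1168 CPM in wild-type, 293 to 397, 444 to 664 and 554 to 751 in the mutants. The hair cell markers, of which 3 were under-expressed and 1 over-expressed for Clrn1-/-, 0 and 4 for Clrn2-/- and 2 and 5 in double-mutant mice, summed to 2763 to 2989 CPM in Clrn1-/- and 3261 to 3883 in Clrn2-/- libraries. No marker of these 6 lists was at 0 in any genotype. Further lists held calls too. In double mutants, 4 of 13 stria markers were over- and 3 under-expressed, and 2 of 11 muscle markers tested were under-expressed. The part of these cells in the members' values was not tested.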

How the data were processed

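The 12 deposited files held counts per gene on each strand, which the authors made by aligning paired reads of a directional poly-A library with STAR (GRCm38.p6, Gencode vM24, per the methods and the submitters' processing notes, version not given in the sources used here). The reverse-strand counts were used, since they held 95.2 to 95.6% of the stranded reads. Reads not assigned to a gene, 13.5 to 15.8% of each file, were left out.

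Genes were filtered with filterByExpr (minimum count 10), scaled by TMM (factors 0.963 to 1.02) and tested with edgeR 4.0.16 (R 4.3.3) by the quasi-likelihood test over all 12 libraries with genotype as the only term and Benjamini-Hochberg adjustment over 19052 genes. This differs from the study's own test, limma-voom, which was tried as an alternative (limma 3.58.1) with DESeq2 1.42.0. The coefficient of variation between libraries was 6.15%. Floors cover counting error only, while each SE comes from the fit and includes the spread between libraries. CPM is counts per 1e6 reads of the TMM-scaled library size. FPKM used exon lengths of Gencode vM21, not vM24, so levels between genes are approximate. On simulated counts for double mutants against wild-type, with 18117 genes, edgeR recovered 88.3% of 2-fold and 97.5% of 4-fold changes.

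The members and gene lists were chosen with earlier results of these data known. Library values are given for members called in at least 1 mutant, for the 5 highest in wild-type and for members that passed in all 3 mutants, and for further members as examples of a role. From each pathway list up to 4 genes called in double mutants are named by smallest adjusted p, with Clrn1, Clrn2, Nfe2l2, Keap1 and Nnt in any case. Same-numbered libraries deviated together (correlation over 12453 genes above 0.1) in 7 of 18 pairs, and in all 3 pairs only for wild-type with Clrn1-/-; labels give no shared litter or day. For that comparison the correlations were 0.291, 0.134 and 0.111, so a pairing by number is possible but not established. The main test did not use it, and blocked values are given where they change a call.

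Overlapping genes on the opposite strand make unstranded counts of 5 members (Gss, Gstm5, Prdx2, Prdx5 and Txnrd2) fall under 95% of their reverse-strand counts.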

Additional observations from a re-analysis of the deposited data

Results flagged for a closer look

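2 members had an interaction of Clrn1 and Clrn2 that passed both the adjusted p and 1.5-fold, so that the change that goes with loss of Clrn1 differed between mice with and without Clrn2. For Gpx6 the interaction was -3.67 on the log2 scale (adjusted p = 0.0054 by edgeR's quasi-likelihood test), because the gene was high in the 3 Clrn1-/- libraries and near the floor in the 9 others. For Gsr it was -0.64 (adjusted p = 0.00013), with higher levels in both single mutants and a level near wild-type in the double mutants. Both calls held in all 20 alternatives, where Gpx6 ranged from -4.13 to -3.19 and Gsr from -0.71 to -0.60. Of 42 values of members on the opposite strand, 0 were called higher than in wild-type. A separate test of single outlying libraries was not run, but each library was left out in turn.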

How the results depend on the processing

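Of 96 member values past the adjusted p, 0 changed sign in 2004 values from 21 other settings. Of 14 calls of a member, 6 were lost in at least 1 setting, namely those of Gstm6 (both), Mgst2 (both), Gsta3 and Mgst3 in Clrn1-/- mice. Without a fold minimum, 5 members were higher and 11 lower in Clrn1-/-, 4 and 2 in Clrn2-/- and 7 and 9 in Clrn1-/-Clrn2-/- mice, and 16, 16 and 14 passed between double mutants and Clrn1-/-, double mutants and Clrn2-/-, and Clrn1-/- and Clrn2-/- mice, with 12 for the interaction. For the comparisons among mutants, the share of all genes without a fold minimum was not counted. The 2 under-expressed members in Clrn1-/- mice became 1 with limma-voom and 0 with library size alone. The 2 in double mutants became 4 without a filter on low counts and 1 with the compared genotypes alone. The 1 call between double mutants and Clrn2-/- mice became 0 with DESeq2 and 2 without the filter. At the adjusted p alone, library size alone gave 7 lower in Clrn1-/-, 1 lower in Clrn2-/- and 12 higher in double mutants, and the compared genotypes alone gave 2 higher and 1 lower in Clrn2-/- mice. Leaving out 1 library gave 0 to 3 under-expressed in Clrn1-/- (0 without Clrn1-/- replicate 2), 1 to 4 in double mutants (4 without wild-type replicate 3), 0 to 1 called between double mutants and Clrn2-/- mice, and 1 to 3 between both single mutants (1 without Clrn1-/- replicate 2 or Clrn2-/- replicate 3). At the adjusted p alone it gave 6 to 13 lower in Clrn1-/- (6 without Clrn1-/- replicate 1), 2 to 5 higher (2 without wild-type replicate 1 or 2) and 1 to 4 lower in Clrn2-/- (4 without wild-type replicate 3), and 8 to 14 lower in double mutants (14 without wild-type replicate 3). The causes of these shifts were not tested. Low counts limit Gpx6 outside Clrn1-/- mice, Mgst2, Gstm6 and Gsta3. The counts at the adjusted p alone were added after seeing the data.

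With the replicate number as a block, 1 member in place of 2 was under-expressed in Clrn1-/- mice (Gstm6 was lost), and between both single mutants Gstm6 was lost as well. Of the 18 pairs of same-numbered libraries, the correlations lay between -0.279 and 0.306. The block ended no other call of a member.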
